A study of Mus musculus with 44 samples.

Results

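The comparison set 2 H3K4me3 libraries of intermediate cells against 2 of early cells, 4 of the 44 libraries in the series and 4 of the 11 for this mark. Both kinds of cell came from livers of Rosa26-LSL-Cas9-EGFP mice (the genotype label reads only wild type) that received AAV8-TBG-Cre into the retro-orbital sinus at 5e11 genome copies per mouse, which turns on EGFP in hepatocytes through the TBG promoter, and 0.1% DDC diet from 1 week later for 8 to 9 weeks. DDC is a toxin that injures bile ducts and drives some hepatocytes towards a biliary state. Intermediate cells were sorted as EGFP+ CD24+ EPCAM- and early cells as EGFP+ CD24-, so virus, diet and its duration were shared and the CD24 gate separated the groups. The other stages, used for the spread of the fit and for orientation, were normal hepatocytes (Hep, 2 libraries, AAV8-TBG-Cre, no DDC, isolated by percoll gradient), late cells (EGFP+ CD24+ EPCAM+, 3 libraries) and biliary epithelial cells (BEC, EGFP- EPCAM+, 2 libraries, DDC). The assay was of the CUT&Tag kind, with an antibody against the mark that brings in the transposase pAG-Tn5. The deposited values are peak lists, so read depth is unknown, and nothing in the labels says whether the 2 libraries of a stage came from separate mice, so the p-values measure the spread between these libraries, which may be technical.

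H3K4me3 is deposited around the start sites of active genes by SET1 and MLL methyltransferase complexes. It is usual at CpG-rich starts, where it can stand beside the Polycomb mark H3K27me3 on silent developmental genes, and many liver-specific genes instead start in CpG-poor DNA and carry H3K4me3 only where they are active. Hepatocytes express bile acid, drug, amino acid and lipid enzymes, and biliary cells express keratins, adhesion proteins, secretin-responsive channels and the surface proteins CD24 and EPCAM.

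Promoters at both extremes of the comparison differed in base composition, and 6 examples are shown for that reason, each as the 250 bases before and 50 bases after the start in RefSeq for GRCm38.p6, the assembly of mm10, written 5′ to 3′ on the strand of the gene with every CG dinucleotide in capitals. The first 3 lost H3K4me3 in intermediate cells and belong to hepatocyte genes. They are Akr1d1 (chr6:37529923-37530222, plus strand), the bile acid synthesis enzyme Δ4-3-oxosteroid 5β-reductase, Nr1i3 (chr1:171213720-171214019, plus strand), the xenobiotic receptor CAR, and Fabp1 (chr6:71199629-71199928, plus strand), the liver fatty acid binding protein. The other 3 gained it and are Cdh6 (chr15:13173626-13173925, minus strand), a cadherin, Erbb2 (chr11:98412234-98412533, plus strand), a receptor tyrosine kinase, and Zeb2 (chr2:45110228-45110527, minus strand), a zinc finger repressor of epithelial genes.
Akr1d1: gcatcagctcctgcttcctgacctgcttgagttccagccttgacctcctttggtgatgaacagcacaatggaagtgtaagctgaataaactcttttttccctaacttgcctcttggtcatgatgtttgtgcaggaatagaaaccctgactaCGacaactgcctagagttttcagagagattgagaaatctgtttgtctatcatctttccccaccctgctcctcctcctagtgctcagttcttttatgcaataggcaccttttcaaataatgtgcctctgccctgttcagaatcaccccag
Nr1i3: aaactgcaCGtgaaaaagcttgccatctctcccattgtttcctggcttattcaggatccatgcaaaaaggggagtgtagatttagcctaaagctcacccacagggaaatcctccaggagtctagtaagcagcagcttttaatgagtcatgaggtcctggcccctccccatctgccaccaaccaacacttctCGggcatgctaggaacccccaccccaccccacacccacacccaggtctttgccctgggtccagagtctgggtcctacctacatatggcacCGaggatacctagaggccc
Fabp1: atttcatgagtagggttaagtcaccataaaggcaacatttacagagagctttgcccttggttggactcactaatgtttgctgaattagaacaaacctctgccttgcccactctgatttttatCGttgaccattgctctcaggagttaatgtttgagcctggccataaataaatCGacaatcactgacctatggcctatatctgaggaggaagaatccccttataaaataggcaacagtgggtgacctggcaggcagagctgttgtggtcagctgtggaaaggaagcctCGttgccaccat
Cdh6: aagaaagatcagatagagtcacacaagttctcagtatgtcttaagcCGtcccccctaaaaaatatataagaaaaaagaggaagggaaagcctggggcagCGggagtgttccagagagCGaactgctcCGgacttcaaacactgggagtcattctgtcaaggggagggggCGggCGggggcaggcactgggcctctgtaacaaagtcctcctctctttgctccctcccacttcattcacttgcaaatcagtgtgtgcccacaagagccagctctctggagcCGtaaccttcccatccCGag
Erbb2: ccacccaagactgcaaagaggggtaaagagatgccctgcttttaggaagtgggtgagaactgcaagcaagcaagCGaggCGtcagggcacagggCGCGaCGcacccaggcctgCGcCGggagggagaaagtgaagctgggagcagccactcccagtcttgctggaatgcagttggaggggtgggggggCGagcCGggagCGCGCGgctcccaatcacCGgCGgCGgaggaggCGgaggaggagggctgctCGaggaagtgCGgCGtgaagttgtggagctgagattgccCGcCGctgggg
Zeb2: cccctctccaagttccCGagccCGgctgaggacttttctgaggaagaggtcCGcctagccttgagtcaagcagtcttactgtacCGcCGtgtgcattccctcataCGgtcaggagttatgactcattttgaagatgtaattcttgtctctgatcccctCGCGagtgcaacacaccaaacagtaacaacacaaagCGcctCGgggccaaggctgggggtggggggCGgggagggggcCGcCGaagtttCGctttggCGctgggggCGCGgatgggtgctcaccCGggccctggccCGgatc
The stretches of Akr1d1, Nr1i3 and Fabp1 hold 1, 3 and 3 CG dinucleotides, and those of Cdh6, Erbb2 and Zeb2 hold 8, 21 and 19.

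Peak length set the libraries apart before any comparison of genes. Intermediate 1 held 33762 peaks with a median of 129 bp and a shortest peak of 61 bp, and intermediate 2 held 27663 with a median of 301 bp. Early 1 held 19356 peaks with a median of 417 bp and early 2 held 23313 with a median of 405 bp. The peaks of the intermediate libraries covered 5.43 and 10.8 Mb, against 9.48 and 11.7 Mb for early. Late 1 had short peaks as well, with a median of 89 bp. At the 10013 protein-coding promoters with a peak in each of the 11 libraries, intermediate 1 averaged 2.67 peaks per promoter and intermediate 2 averaged 1.84, against 1.48 and 1.73 in the early libraries, so the same promoters were covered by more and shorter pieces in intermediate 1. H3K4me3 was therefore read in 3 ways, as the bp under peaks within 2500 bp of the start (covered bp), as the same after each peak was set to 500 bp around its midpoint (resized), and as presence of a peak within 1000 bp.

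By covered bp, 17 of 13638 promoters rose in intermediate cells (0.125%) and 25 fell (0.183%), at an adjusted p under 0.05 (limma, Benjamini-Hochberg over all promoters tested). By resized peaks 658 of 13659 rose (4.82%) and 48 fell (0.351%). By presence, which was not tested because 2 against 2 libraries allow no exact p below 0.333, 776 of 21887 promoters had a peak in both intermediate and no early library (3.55%) and 57 had the reverse (0.26%). The median promoter changed by -0.35 on the log2 scale of covered bp and by 0.32 on that of resized peaks, and both are shifts of the whole table against which single genes should be read. The direction of the balance depended on the measure. Quantile normalization of covered bp gave 209 higher and 171 lower, and joining peaks within 500 bp of each other gave 118 and 58. Resizing after such joining gave 391 higher (2.87%) and 70 lower (0.513%), and the 19356 highest-scored peaks of every library gave 235 and 171 by resized peaks and 260 and 164 by presence. All 17 promoters higher by covered bp were also higher by resized peaks and 16 were also in the presence class. Of the 25 lower ones, 15 were lower by resized peaks and 20 were in the presence class. Without early 1, and likewise without early 2, no promoter passed by covered bp (limma), with 822 and 772 at an unadjusted p under 0.05. Without intermediate 1, 2 rose and 6 fell, without intermediate 2 none rose (272 at an unadjusted p under 0.05, limma) and 5 fell, without late 3, 1 rose and 7 fell, and without late 1 the counts were 316 and 84.

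**Figure D1:**
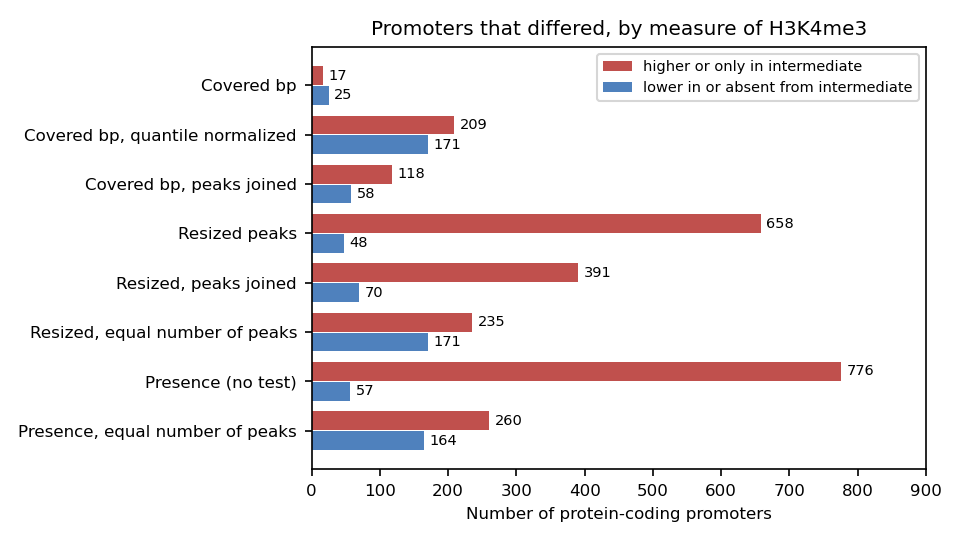
Number of protein-coding promoters (horizontal axis) that were higher or only present in intermediate cells (upper bar of each pair) and lower in or absent from them (lower bar), for each measure of H3K4me3. Covered bp gives 17 and 25, resized peaks 658 and 48 and presence 776 and 57, and equal numbers of peaks bring the last to 260 and 164.

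Among the 25 lower promoters, Akr1d1 and Nr1i3 had the largest fitted log2 changes of covered bp, -3.81 and -3.79. Akr1d1 had 0 and 0 bp in intermediate 1 and 2, against 1217 and 1384 bp in early 1 and 2 (mean 1300.5 ± 118 bp, SD, n = 2; adjusted p = 0.00242, limma). Nr1i3 had 0 and 0 bp in intermediate cells, against 1286 and 1273 bp in early cells (adjusted p = 0.00242, limma). Each early library thus had more than a kilobase under peaks within 2500 bp of each start, and neither intermediate library had a peak there. Hep libraries were like early with 1309 and 1403 bp at Akr1d1 and 1504 and 1319 bp at Nr1i3. Fabp1 had 0 and 0 bp in intermediate cells, against 737 and 1155 bp in early cells (adjusted p = 0.0167, limma), and 1922 and 2160 bp in Hep. No fold is given where a stage has no peak, and the fitted log2 changes of such promoters depend on the 100 bp added before the logarithm.

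Enzymes of amino acid and nitrogen metabolism gave 4 of the 25. Urad, an enzyme of urate breakdown, had 0 and 0 bp in intermediate cells, against 1136 and 1214 bp in early cells (adjusted p = 0.00242, limma), and kept short stretches of 167, 123 and 115 bp in the 3 late libraries. Car5a, the mitochondrial carbonic anhydrase that supplies bicarbonate to the urea cycle, had 0 and 0 bp, against 1274 and 937 bp in early cells (adjusted p = 0.0026, limma). Agxt, which detoxifies glyoxylate in peroxisomes, had 0 and 0 bp, against 585 and 648 bp in early cells (adjusted p = 0.0304, limma). The early values of these genes lay above the intermediate ones without overlap, as at 30.8% of all promoters tested. Hao1, the glycolate oxidase upstream of Agxt, showed the same order with 61 and 0 bp in intermediate cells, against 477 and 1141 bp in early cells (adjusted p = 0.0396, limma). All 36 promoters of this list were tested (limma), and 4 fell and none rose, where 0.183% of all promoters fell and 0.125% rose. At an unadjusted p under 0.05 (limma) 17 were lower and 0 higher, beside 316 and 742 of all 13638 promoters. The list's median log2 change of covered bp was -1.18, against -0.35 for all promoters.

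Among the 25 were also Rdh7, Rdh16f2 and Ces1g, which stood in no list, and Cyp3a25 and Ugt2b1 of the xenobiotic list. Rdh7, a retinol and hydroxysteroid dehydrogenase, had 0 and 0 bp in intermediate cells, against 848 and 1259 bp in early cells (adjusted p = 0.00374, limma), and its neighbour Rdh16f2 had 0 and 0 bp, against 368 and 1056 bp. Cyp3a25, a cytochrome P450, had 0 and 0 bp, against 450 and 742 bp in early cells (adjusted p = 0.0274, limma). Ugt2b1, a glucuronosyltransferase, and Ces1g, a carboxylesterase, had no peak in the intermediate libraries, against 460 and 490 bp and 379 and 463 bp in the early ones. These belong to gene families with close copies, between which mapping of reads may be split, which also holds for Mup3, Serpina3k and Serpina3m. Of 23 xenobiotic enzymes tested, 2 fell by covered bp and none rose (limma, 13 lower and 0 higher at an unadjusted p under 0.05), and 6 had a peak in both early and no intermediate library. Over all promoters these were 0.183% lower by covered bp, 316 of 13638 lower at an unadjusted p under 0.05, and 0.26% in the presence class. Cyp2b10, a classic target of CAR, was among those 6 with 0 and 0 bp in intermediate cells, against 553 and 408 bp in early cells, and its adjusted p was 0.065 (limma). In Hep it had only 0 and 150 bp, so its early peaks exceeded those of normal hepatocytes. The share of the list with a peak was 34.8% and 47.8% in the intermediate libraries, against 69.6% and 78.3% in the early ones.

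Among lipid genes, Lipc (hepatic lipase), Apoa5 (a regulator of plasma triglycerides) and Fabp1 fell, 3 of 23 tested, against 0.183% of all promoters. Lipc had 0 and 0 bp in intermediate cells, against 420 and 513 bp in early cells (adjusted p = 0.0391, limma). Apoa5 had 0 and 0 bp, against 304 and 476 bp in early cells (adjusted p = 0.0498, limma), and a window of 5000 bp, which reaches other starts, turned its change to 0.27 on the log2 scale. Apom, a carrier of sphingosine 1-phosphate in plasma that was not in the list, had 0 and 0 bp, against 357 and 447 bp (adjusted p = 0.0441, limma). Ido2, a tryptophan dioxygenase, had 0 and 195 bp in intermediate cells, against 1057 and 1671 bp in early cells (adjusted p = 0.0274, limma). Pon1, the plasma paraoxonase, had 96 and 0 bp in intermediate cells, against 1093 and 817 bp in early cells (adjusted p = 0.04, limma). At each of these promoters the lower early library exceeded the higher intermediate library, as at 30.8% of all promoters tested. The other promoters that fell were Hrg (a plasma glycoprotein), Cfhr2 (a complement factor H relative), Tmem86b, Mroh6, Gnat1, Mup3, Serpina3k and Serpina3m, with 0 to 124 bp in intermediate libraries, against 375 to 1278 bp in early libraries.

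Other hepatocyte promoters moved the same way in presence without passing by covered bp. Cyp7a1, which limits the rate of bile acid synthesis, had 0 and 0 bp in intermediate cells, against 259 and 267 bp in early cells and 361 and 324 bp in Hep (adjusted p = 0.0826, limma). Mbl2, a complement-activating lectin, had 0 and 0 bp, against 193 and 417 bp (adjusted p = 0.0818, limma). Serpinc1, antithrombin, had 0 and 0 bp, against 308 and 216 bp (adjusted p = 0.086, limma). Fgf21, a stress-induced hormone, had 0 and 0 bp in intermediate cells, against 316 and 294 bp in early cells, and no peak in either Hep library (adjusted p = 0.065, limma). Its peaks were thus seen at the early stage alone of the 5, although no test of that pattern was made. These 4 passed by resized peaks, where many values are equal within a stage (33 of the 48 lower promoters and 1945 of all 13659), so the size of p on that scale is no measure of strength and is not given. Of 13 bile acid synthesis promoters tested 1 fell (Akr1d1), with 5 lower and 0 higher at an unadjusted p under 0.05 (limma). Of 14 bile acid and drug transporters none passed (limma, 7 lower and 0 higher at an unadjusted p under 0.05). Over all promoters 0.183% fell and 316 of 13638 were lower at an unadjusted p under 0.05 (limma). Cyp8b1, the sterol 12α-hydroxylase, had no peak in either stage, against 1141 and 2124 bp in Hep.

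The core hepatocyte regulators kept their peaks. Hnf4a, the master regulator of hepatocyte genes, had 629 and 1032 bp in intermediate cells, against 1128 and 1219 bp in early cells (adjusted p = 0.807, limma). Nr1h4, the bile acid receptor FXR, had 419 and 1015 bp, against 1191 and 1592 bp (adjusted p = 0.801, limma). Both lay lower in both intermediate libraries, like 30.8% of all promoters tested, and neither passed. Over all promoters 0.183% fell by covered bp and 3.55% had a peak in both intermediate and no early library. Of 22 hepatocyte transcription factors 1 fell (Nr1i3) and 3 had a peak in both intermediate and no early library. These were Prox1 with 567 and 965 bp, against 0 and 202 bp in early cells, Tbx3 with 283 and 1164 bp, against 0 and 335 bp, and Rxra with 150 and 402 bp, against 709 and 761 bp, the last with its early peaks farther than 1000 bp from the start. Prox1 had 1202 and 1288 bp in Hep and Tbx3 943 and 1097 bp. At Prox1 both intermediate libraries exceeded both early ones in covered bp (adjusted p = 0.154, limma), as at 8.26% of all promoters tested. The stages overlapped at Tbx3 (adjusted p = 0.649, limma).

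The 17 promoters that rose in intermediate cells all had 0 bp in both early libraries, while both intermediate libraries exceeded both early ones at 8.26% of all promoters tested. Cd24a, whose product defined the sort gate, had 675 and 1379 bp in intermediate cells, against 0 and 0 bp in early cells (adjusted p = 0.0178, limma), so that this promoter is not independent of the sort. Cdh6 had 642 and 912 bp in intermediate cells (mean 777 ± 191 bp, SD, n = 2), against 0 and 0 bp in early cells (adjusted p = 0.0274, limma). Sparc, a secreted matrix glycoprotein, had 614 and 1221 bp, against 0 and 0 bp (adjusted p = 0.0446, limma). Each of these was also without a peak in Hep and had 1184 bp or more in both BEC libraries, and the lower value of the intermediate pair was in intermediate 1 each time.

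Growth factor and Wnt genes were among the rest. Erbb2 had 419 and 993 bp in intermediate cells, against 0 and 0 bp in early cells (adjusted p = 0.0448, limma). Wnt7a, a secreted Wnt ligand, had 448 and 894 bp, against 0 and 0 bp (adjusted p = 0.0441, limma). Both had no peak in Hep, and BEC libraries had 1428 and 1409 bp at Erbb2 and 1382 and 1436 bp at Wnt7a. Arhgef2, a microtubule-bound activator of RhoA, had 499 and 1101 bp, against 0 and 0 bp (adjusted p = 0.0441, limma). Pik3ip1, an inhibitor of PI3 kinase, had 657 and 1152 bp, against 0 and 0 bp (adjusted p = 0.0446, limma), and Mtcl1, a microtubule crosslinking protein, had 626 and 1586 bp, against 0 and 0 bp (adjusted p = 0.0468, limma). Tgif2, a homeodomain repressor in TGF-beta signalling, had 460 and 969 bp, against 0 and 0 bp (adjusted p = 0.0441, limma), and LOC115486128, which starts close by, was counted on the same peaks. The remaining promoters that rose, Dennd2a, Slco3a1 (an organic anion transporter), Scube3, Mdga1, Pqlc3 and Jph4, had 353 to 1039 bp in intermediate libraries, against 0 bp in each early library. For Erbb2, Arhgef2, Scube3 and Jph4 the placement at the gene end with more H3K4me3 gave changes of -0.59, -1.34, -0.04 and -0.68 on the log2 scale, at other positions of these genes.

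Zeb2 differed from most of this group in that Hep libraries also had a peak. It had 439 and 1153 bp in intermediate cells, against 0 and 0 bp in early cells (adjusted p = 0.0274, limma), with 186 and 306 bp in Hep. Atf3, a stress-induced AP-1 family factor, had 160 and 374 bp in intermediate cells, against 0 and 0 bp in early cells and 725 and 1205 bp in Hep (adjusted p = 0.22, limma). Ccn1, a matricellular target of YAP, had 321 and 178 bp, against 0 and 0 bp in early cells and 976 and 1002 bp in Hep (adjusted p = 0.366, limma). Of the 776 promoters with a peak in both intermediate and no early library, 74 (9.54%) had a peak in both Hep libraries, as these 3 did, against 1.53% of the promoters without a peak in either early library and 48.6% of all promoters.

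**Figure D2:**
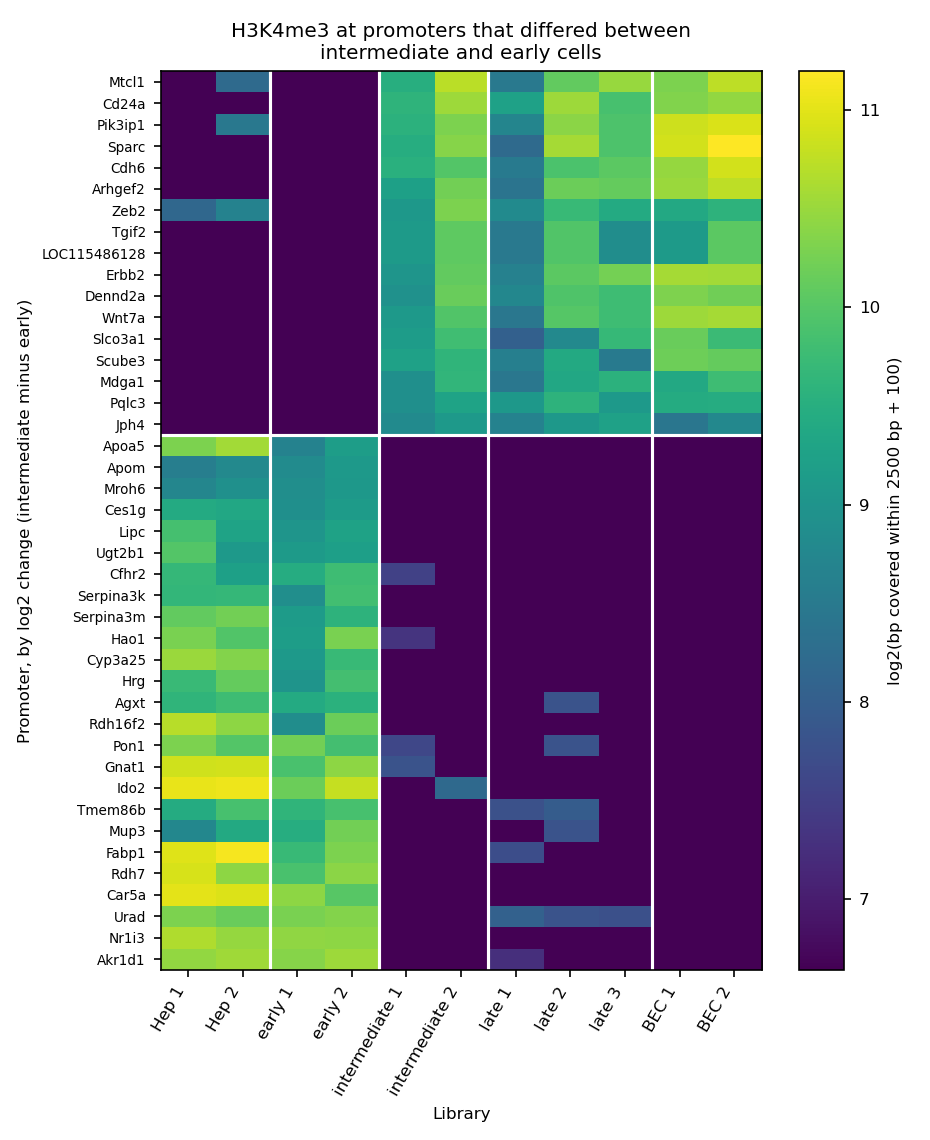
Each row is 1 of the 42 promoters that differed between intermediate and early cells by covered bp, ordered by log2 change, each column is 1 of the 11 H3K4me3 libraries in the order Hep, early, intermediate, late and BEC, and colour gives log2 of the bp covered within 2500 bp plus 100. The upper block is dark in both early libraries and the lower block is dark or nearly so in intermediate, late and BEC libraries. In most rows of the upper block intermediate 1 and late 1 are darker than their replicates.

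Biliary markers moved mostly by presence. The share of the 40 biliary markers with a peak within 1000 bp was 72.5% and 80.0% in the intermediate libraries, against 47.5% and 50.0% in the early ones, while the share of all promoters was 54.9% and 57.0%, against 50.1% and 50.9%. By covered bp 1 of 38 tested rose (Cd24a), by resized peaks 8 rose and none fell (limma, 12 higher and 0 lower at an unadjusted p under 0.05), and 8 had a peak in both intermediate and no early library. Over all promoters 0.125% rose by covered bp and 4.82% by resized peaks, and 3.55% were in the presence class. By resized peaks 2048 of 13659 were higher at an unadjusted p under 0.05 (limma). Krt19, a keratin of biliary epithelium, had 145 and 279 bp in intermediate cells, against 0 and 0 bp in early cells (adjusted p = 0.198, limma). Krt7, its partner in biliary cells, had 67 and 190 bp, against 0 and 0 bp (adjusted p = 0.522, limma). These stretches were short beside the 1645 and 1468 bp at Krt19 and 1168 and 1166 bp at Krt7 in BEC. Cftr, the chloride channel of duct secretion, had 343 and 439 bp in intermediate cells, against 0 and 0 bp in early cells (adjusted p = 0.086, limma). Sctr, the secretin receptor, had 378 and 696 bp, against 0 and 0 bp (adjusted p = 0.065, limma). Itgb4, an integrin that anchors epithelium to laminin, had 87 and 497 bp, against 0 and 0 bp (adjusted p = 0.337, limma). All 5 had no peak in Hep and passed by resized peaks.

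Other biliary promoters already had peaks in early cells. Sox9, a biliary and progenitor transcription factor, had 304 and 838 bp in intermediate cells, against 1303 and 1065 bp in early cells (adjusted p = 0.699, limma), with 1369 and 1250 bp in Hep. Sox4, its relative, had 263 and 796 bp, against 549 and 853 bp (adjusted p = 0.824, limma), and no peak in Hep. Spp1, osteopontin, had 150 and 312 bp, against 279 and 415 bp (adjusted p = 0.808, limma). The values of Sox4 and Spp1 overlapped between the stages. Epcam, whose product is absent from the surface of intermediate cells by the gate and was not used to sort early cells, had 410 and 557 bp in intermediate cells, against 0 and 465 bp in early cells (adjusted p = 0.801, limma), so its promoter already had a peak in 3 of the 4 libraries.

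Members of the epithelial transcription factor, adhesion and signalling lists are given as values, since few passed by covered bp. Ehf, an epithelial ETS factor, had 70 and 474 bp in intermediate cells, against 0 and 0 bp in early cells (adjusted p = 0.342, limma), and Cdh3, P-cadherin, had 308 and 406 bp, against 0 and 0 bp (adjusted p = 0.0818, limma). Of 33 Wnt pathway promoters 7 had a peak in both intermediate and no early library, and Wnt4 had 261 and 864 bp, against 0 and 0 bp (adjusted p = 0.0723, limma). Of 26 YAP and Hippo promoters 5 were in that class. Ankrd1, a YAP target, had 145 and 364 bp, against 0 and 0 bp (adjusted p = 0.168, limma), and Ptpn14, a phosphatase that binds YAP, had 61 and 763 bp, against 0 and 0 bp (adjusted p = 0.405, limma). In the Notch list 3 of 21 were in that class. The ligand Dll4 had 72 and 211 bp, against 0 and 0 bp (adjusted p = 0.583, limma), and the Notch effector Heyl had 330 and 499 bp, against 0 and 0 bp (adjusted p = 0.115, limma). Jag1, the ligand mutated in Alagille syndrome, and the receptor Notch2 had peaks in all 4 libraries, with 669 and 1168 bp in intermediate cells, against 1593 and 1519 bp in early cells at Jag1. Inhbb, an activin subunit in the TGF-beta list, had 511 and 762 bp, against 0 and 0 bp (adjusted p = 0.0705, limma). By covered bp each of the Wnt, TGF-beta, adhesion and AP-1 lists held 1 promoter that rose (Wnt7a, Zeb2, Cdh6 and Erbb2) and the Notch and YAP lists held none (limma, 2 and 5 higher at an unadjusted p under 0.05). The class with a peak in both intermediate and no early library takes in 3.55% of all promoters. Over all promoters 0.125% rose by covered bp, and 742 of 13638 were higher at an unadjusted p under 0.05 (limma).

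**Figure D3:**
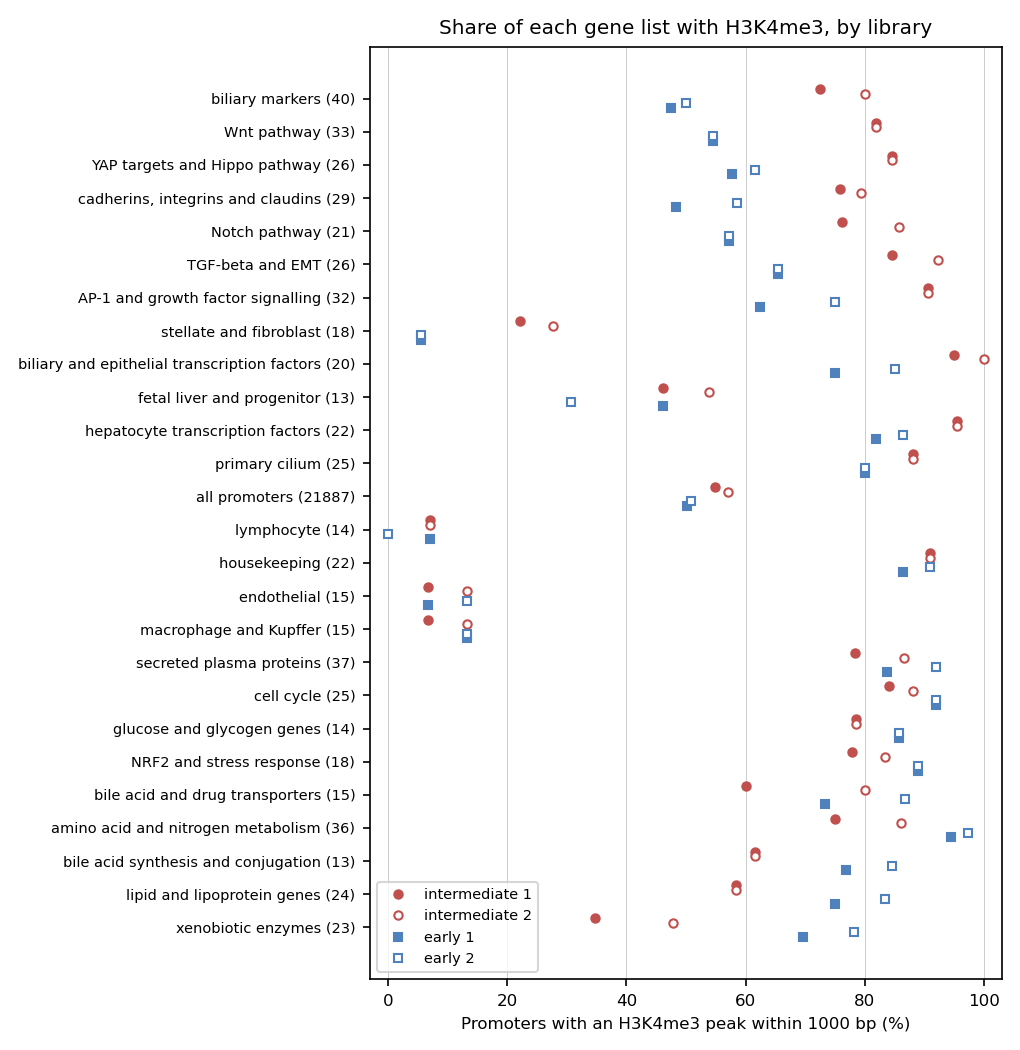
Share of the promoters of each gene list (number of genes in brackets) with an H3K4me3 peak within 1000 bp, in percent, with 1 point for each library (circles for intermediate, squares for early, filled for replicate 1). Lists are ordered by the difference between the stages, from biliary markers at the top (72.5% and 80.0% against 47.5% and 50.0%) to xenobiotic enzymes at the bottom (34.8% and 47.8% against 69.6% and 78.3%).

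Markers of other cell types that a sort could carry were read in the same libraries. Housekeeping promoters, as a control, had a peak at 20 and 20 of 22 in intermediate cells, against 19 and 20 in early cells. Of 18 stellate cell and fibroblast markers, 4 and 5 had a peak in the intermediate libraries, against 1 and 1 in the early libraries, and their summed covered bp was 836 and 2693, against 530 and 765. The sum was 489 and 801 bp in Hep, 476, 2911 and 1994 bp in late and 2250 and 3675 bp in BEC libraries. Rgs5, a pericyte gene, had 303 and 598 bp in intermediate cells, against 0 and 0 bp (adjusted p = 0.124, limma), and Col1a1, the collagen I chain, had 188 and 278 bp, against 0 and 0 bp (adjusted p = 0.249, limma). BEC libraries had 1515 and 1887 bp at Rgs5 and 528 and 886 bp at Col1a1, and Hep libraries had none at either. Lrat, which stores retinol in stellate cells, had 168 and 279 bp, against 0 and 0 bp, with H3K27me3 in all 4 libraries. Col1a2, Col3a1, Acta2, Des, Pdgfra, Pdgfrb, Dcn, Lum, Thy1, Tagln and Dpt, 11 of the 18, had no peak within 2500 bp in any of the 4 libraries, and Col1a1, Col5a1, Lrat, Reln, Ngfr, Hand2 and Rgs5 had 1 or more. The part of such cells in the gains at Sparc, Zeb2 and the TGF-beta and YAP lists was not tested. Of 15 endothelial markers 1 and 2 had a peak in intermediate cells, against 1 and 2 in early cells, with 186 and 986 bp summed, against 348 and 472 bp. Of 15 macrophage markers 1 and 2 had a peak, against 2 and 2, with 709 and 1513 bp summed, against 1357 and 1606 bp. Of 14 lymphocyte markers 1 and 1 had a peak, against 1 and 0, with 375 and 1132 bp summed, against 848 and 305 bp. Pecam1, Cdh5, Adgre1, Csf1r, Ptprc and Cd3e were among those with no peak within 2500 bp in any of the 4. Kdr, Tie1, Egfl7, Cd14, Spi1, Mpeg1, Cd4 and Lck had 1 or more, and neutrophil markers had a peak within 1000 bp in none. In sorted bulk cells a smaller share of cells with the mark and less of the mark per cell cannot be told apart.

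The changed promoters were also read in the other stages, without a test. Of the 776 promoters with a peak in both intermediate and no early library, 423 (54.5%) had a peak in all 3 late libraries, 525 (67.7%) in both BEC libraries and 24 (3.09%) in no late library. The shares for all protein-coding promoters were 50.6%, 53.0% and 40.6%, and those for promoters without a peak in either early library were 5.47%, 8.55% and 83.5%. Of the 57 with the reverse pattern, 44 (77.2%) had a peak in both Hep libraries, 40 (70.2%) had none in any late library and 47 (82.5%) had none in either BEC library. The shares were 48.6%, 40.6% and 43.6% for all protein-coding promoters and 95.9%, 0.28% and 1.64% for those with a peak in both libraries of both stages. The Hep, late and BEC libraries also entered the spread of the covered bp fit. They are therefore no independent readout of the promoters chosen by that fit. All 25 promoters that fell by covered bp had no peak within 1000 bp in BEC, and 22 (88.0%) had a peak in both Hep libraries. Of the 17 that rose, 14 (82.35%) had a peak in both BEC libraries, 15 (88.24%) in all late libraries and 1, Zeb2, in both Hep libraries. Over all promoters tested by covered bp these shares were 84.98%, 81.23% and 77.95%, and 9.91% had no peak in BEC. The BEC and late shares of the 17 were thus near those of all promoters tested. Mup3 and Mroh6 among those that fell and Jph4 among those that rose had no peak within 1000 bp in any stage. Their covered bp lay farther from the placed start.

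The gains and losses differed in base composition. The ratio of observed to expected CpG in the 300-base stretch had a median of 0.69 (range 0.174 to 0.97) over the 15 of 17 higher promoters with a RefSeq stretch, and 0.135 (range 0 to 0.42) over the 20 of 25 lower ones. Promoters with a peak in both libraries of both stages had a median of 0.801, with quartiles of 0.645 and 0.933. The stretches of the higher promoters held 4 to 42 CG dinucleotides and those of the lower ones 0 to 9, with medians of 21 and 2. Sparc, Pik3ip1 and Cdh6, with ratios of 0.174, 0.312 and 0.38, were the poorest in CpG among the gains, followed by Jph4 with 0.437. Apom and Urad, with 0.42 and 0.408, were the richest among the losses. The letters TATAAA, on either strand, occurred in 1 of 15 higher stretches (6.67%) and 5 of 20 lower stretches (25%), Fabp1 among them, against 6.01% of the promoters with a peak in both libraries of both stages and 13.1% of all protein-coding promoters with a stretch. The ratio is not compared for the presence classes and the resized calls, since under 80% of those promoters have a RefSeq stretch, and the lower group is at 80% itself.

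**Figure D4:**
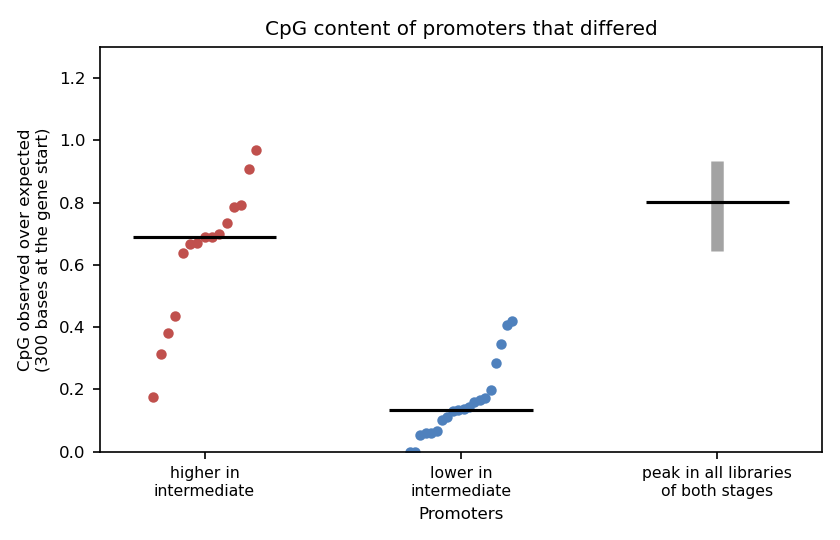
Ratio of observed to expected CpG in the 300 bases at the start (vertical axis), 1 point per promoter higher in intermediate cells (15) or lower in them (20), with the median as a line. The grey bar gives the quartiles, 0.645 and 0.933, for promoters with a peak in both libraries of both stages, and the lower group lies at or below 0.42.

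H3K27ac, a mark of active promoters, was read in separate libraries of the same stages. It rose at 532 of 12609 promoters tested in intermediate cells (4.22%) and fell at 31 (0.246%), with a median log2 change of 0.46, and quantile normalization gave 38 higher (0.301%) and 61 lower (0.484%). At the 17 promoters with higher H3K4me3 it rose at 5, which were Sparc, Pik3ip1, Cdh6, Cd24a and Mtcl1. Sparc had 846 and 740 bp of H3K27ac in intermediate cells, against 0 and 0 bp in early cells (adjusted p = 0.0135, limma). Cdh6 had 376 and 278 bp, against 0 and 0 bp (adjusted p = 0.0154, limma), and Cd24a had 440 and 530 bp, against 0 and 0 bp (adjusted p = 0.0223, limma). With quantile normalization Sparc and Pik3ip1 still passed. Erbb2 had 154 and 0 bp of H3K27ac, against 0 and 0 bp, and Wnt7a had 0 and 135 bp, against 0 and 0 bp, and neither passed. The median change over the 17 was 0.92, and -0.09 with quantile normalization, whose medians over all promoters were 0.46 and -0.05.

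At the promoters that lost H3K4me3, H3K27ac was lower at the median and passed at few. The median log2 change of H3K27ac over the 23 of 25 lower promoters that were tested was -0.82, and -1.25 with quantile normalization. It fell at 1 of them, Rdh16f2, which had 0 and 0 bp of H3K27ac in intermediate cells, against 194 and 138 bp in early cells (adjusted p = 0.0483, limma), and at 5 with quantile normalization, Nr1i3, Car5a, Rdh16f2, Agxt and Mup3. Nr1i3 had 133 and 0 bp, against 374 and 335 bp in early cells (adjusted p = 0.109, limma). Rdh7 kept 621 and 386 bp of H3K27ac, against 802 and 543 bp in early cells (adjusted p = 0.783, limma), and Gnat1, a transducin subunit, had 763 and 651 bp, against 938 and 769 bp (adjusted p = 0.801, limma), although the H3K4me3 of both had fallen. Gnat1 was placed at the gene end with more H3K4me3, its strand being unknown, so the position read may not be its start. Fgf21 had 410 and 212 bp of H3K27ac in intermediate cells, against 0 and 0 bp in early cells (adjusted p = 0.0649, limma), which is the reverse of its H3K4me3.

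The Polycomb mark H3K27me3 was read at the same promoters. Of the 776 promoters with a peak in both intermediate and no early library, 195 (25.1%) had H3K27me3 in both early libraries, against 314 of 9035 (3.48%) without H3K4me3 in any of the 4, 6.17% of those without it in either early library and 837 of all 21887 (3.82%). By the other measures it was 2 of the 17 promoters that rose by covered bp (11.8%) and 16.1% of those that rose by resized peaks. The groups set side by side here were not matched for CpG content. Of these 195, 97 had H3K27me3 in both intermediate libraries, 85 in 1 and 13 in none. The share of the 776 with H3K27me3 was 51.9% and 24.7% in the intermediate libraries, against 35.2% and 39.2% in the early ones, so the intermediate pair lay on both sides of the early pair. Scube3, a secreted signalling protein, had H3K27me3 in both early and no intermediate library. Dennd2a, a regulator of Rab GTPases, had it in both libraries of both stages. Krt19, Sctr and Cdh3 had it in both early libraries and in 1 intermediate library. H3K27ac reached 31.7% and 16.9% of the 776 in intermediate cells, against 2.32% and 3.61% in early cells, whereas promoters with H3K4me3 in all 4 libraries had it at 93.0% and 84.4%, against 62.1% and 69.1%. H3K4me1 peaks stood at 42.3% and 20.2% of the 776 in intermediate cells, against 5.28% and 22.0% in early cells, a difference within the spread of the replicates. The H3K27me3 and H3K27ac readings come from other libraries than those that chose the promoters, and no test of these shares was made.

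**Figure D5:**
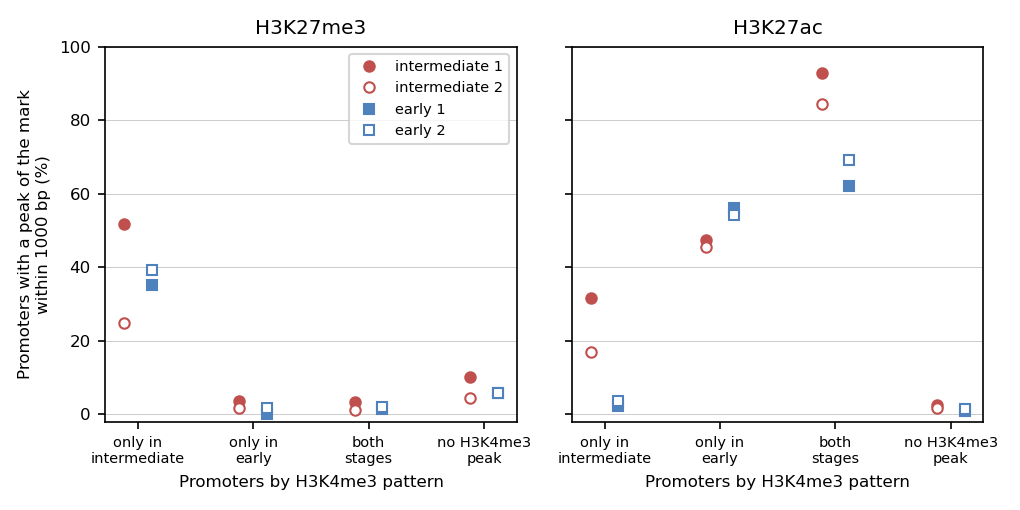
Share of promoters with a peak of H3K27me3 (left panel) or H3K27ac (right panel) within 1000 bp, in percent, for promoters grouped by their H3K4me3 peaks, with 1 point per library (circles for intermediate, squares for early). Promoters with H3K4me3 only in intermediate cells had H3K27me3 at 51.9% and 24.7% in intermediate libraries, against 35.2% and 39.2% in early libraries, above the other 3 groups.

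Regions were also counted without regard to genes. Peaks of the 4 libraries, joined within 500 bp, made 23035 regions. Both intermediate and no early library had a peak in 1722 of them (7.48%), both early and no intermediate library in 536 (2.33%), and all 4 libraries in 11754 (51.0%). A gene start or end lay near 60.9% of the regions of intermediate cells, 25.9% of the regions of early cells, 88.5% of the shared ones and 62.9% of all regions, within 1000 bp, so the share for intermediate cells was close to that of all regions and the share for early cells below it. The regions of early cells had peaks in 50.9% and 66.4% in the Hep libraries and in 5.22% to 23.0% in the late libraries, and those of intermediate cells in 13.0% and 26.7% in Hep and 53.6% to 72.7% in late libraries, where all regions had 59.0% and 67.2% in Hep and 60.6% to 69.6% in late libraries. A single library alone had a peak in 3652 regions for intermediate and 2322 for early.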

How the data were processed

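The authors' deposited peak lists give the start and end of each peak in mm10 and a score. The sources used here do not give its definition or the peak filter. Bowtie2, Picard, deepTools and MACS2 were used, per the submitters' processing notes. The deposited score served to rank the peaks of a list. Only the 19 autosomes, X and Y were used, which left out 0.0902% of peaks. The 21887 protein-coding genes came from RefSeq GRCm38.p6. Promoters were placed at annotated starts or the outer 5′ end where strand was known (17492 genes) and at either gene end otherwise (4395), taking the candidate with most H3K4me3 over all 11 libraries, blind to stage. Among promoters that passed by covered bp, Gnat1, Ido2, Mroh6, Serpina3k, Serpina3m, Cd24a and Slco3a1 were placed at a gene end. Other named genes were too, such as Krt19, Sctr, Cyp7a1 and Sox9. At these genes the position read may not be the start. The outer 5′ ends were added after the data were seen.

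Log2 of covered bp plus 100 was fitted with limma 3.58.1 in R 4.3.3 (lmFit and eBayes) over 11 libraries and 5 stages, keeping promoters where 2 or more libraries had a peak, with an adjusted p under 0.05 for intermediate minus early. The other stages add to the estimate of spread. H3K27ac was fitted likewise. The fit was tested on simulated data. Presence was counted and not tested. Named genes were up to 12 per direction that passed with the largest change and no overlap, up to 4 passing members and up to 3 presence changes per list and direction, and a fixed set of regulators and markers, of which 1 is not reported here; other promoters that passed by covered bp were named after their values were seen. Members and lists were chosen with earlier results of these data known. Other windows, offsets, widths, normalizations, peak thresholds, placements and left-out libraries were tried.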

Additional observations from a re-analysis of the deposited data

How the results depend on the processing

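Counts are given as higher and lower in intermediate cells. Covered bp gave 17 and 25. Windows of 1000 bp gave 6 and 20, an offset of 50 gave 141 and 54, an offset of 500 gave 0 and 10 (363 and 492 at an unadjusted p under 0.05), quantile normalization 209 and 171, equal numbers of peaks 5 and 95, the highest-scored 75% of peaks 11 and 40, joined peaks 118 and 58, a peak in 4 or more libraries 154 and 66, only the 4 libraries 374 and 118, trended and robust eBayes 18 and 10, and gene-end placement 8 and 24. Leaving out 1 library gave 0 to 316 higher and 0 to 84 lower. Omitting both short-peak libraries (intermediate 1 and late 1), chosen after seeing the data, gave 569 and 64. Resized peaks gave 658 and 48, with quantile normalization 363 and 81, equal numbers 235 and 171, joined peaks 391 and 70, only the 4 libraries 1281 and 115, without both short-peak libraries 1006 and 149, and leaving out 1 library 628 to 912 and 51 to 106. Presence gave 776 and 57, with 200 bp or more covered 277 and 133, equal numbers 260 and 164, and leaving out 1 library 934 to 1220 and 75 to 181. Whether replicate numbers pair the libraries is not known. The deviations of early 1 and intermediate 1 over promoters correlated at r = 0.03, which with 2 numbers cannot settle it. A replicate block gave 251 and 96 by covered bp and 659 and 50 by resized peaks. All 42 promoters lost the call without early 1 and without early 2, and kept it under quantile normalization, the offset of 50, the 4 libraries alone, the block, and without late 1. Direction turned for Apoa5 with a 5000 bp window (0.27) and gene-end placement (2.14), and under that placement for Arhgef2 (-1.34), Erbb2 (-0.59), Jph4 (-0.68) and Scube3 (-0.041), which reads other positions. The median H3K27ac change at the 17 turned to -0.094 with quantile normalization, from an alternative chosen after seeing the data. In other cases the cause was not tested. Peak lists without read depth give no floor, so a promoter without a peak may carry the mark below the threshold, and 2 libraries per stage limit every comparison.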

Other observations

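Some promoters passed by resized peaks while their covered bp overlapped or went the other way, and they are given as values only. Top2a, a topoisomerase of dividing cells, had 207 and 552 bp in intermediate cells, against 678 and 879 bp in early cells, and passed as higher by resized peaks. Itga3, an integrin chain, had 692 and 1319 bp, against 920 and 832 bp, and Fosl1, an AP-1 subunit, had 287 and 677 bp, against 552 and 430 bp, and both passed as higher by resized peaks. None of these 3 passed after peaks within 500 bp had been joined. Klf5, an epithelial transcription factor with H3K27me3 in all 4 libraries of the 2 stages, had 736 and 611 bp of H3K4me3, against 440 and 263 bp (adjusted p = 0.801, limma), and its H3K27ac rose, with 389 and 255 bp in intermediate cells, against 0 and 0 bp in early cells (adjusted p = 0.0193, limma), a call lost with quantile normalization (adjusted p = 0.106, limma). Ccnd2, the cyclin D2 gene, had 225 and 1040 bp of H3K4me3, against 0 and 0 bp (adjusted p = 0.112, limma), and Gli1, the Hedgehog effector, had 271 and 222 bp, against 0 and 0 bp (adjusted p = 0.236, limma).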
